A study of Homo sapiens with 9 samples.

Results

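The Wnt gene set comprised every listed gene for a WNT ligand, a Frizzled (FZD) receptor, a Dickkopf (DKK) protein or a secreted Frizzled-related protein (SFRP), together with the co-receptors LRP5 and LRP6, the acyltransferase PORCN, the receptor regulators RNF43, ZNRF3, LGR4 and LGR5, the destruction complex genes AXIN1 and AXIN2, β-catenin (CTNNB1) and the TCF/LEF factors. Members were chosen by gene symbol alone, and 42 of the 20777 genes in the count table matched. WIF1 was also sought and is not among the listed genes. Their mRNA was measured by RNA sequencing in LX-2, an immortalized line of human hepatic stellate cells, the liver cells that become collagen-producing myofibroblasts during fibrosis. The labels give the genotype of every library as "wide type". Each of the 3 groups held 3 libraries. Control cells have no treatment named in the labels. The next group was given TGF-β, the cytokine that activates stellate cells, with the note Day 1. The last was given TGF-β and uridine, a pyrimidine nucleoside, also with the note Day 1. By the study's methods, uridine came in fresh medium after the TGF-β step. Uridine without TGF-β had no group, so the effect of uridine was measured only in TGF-β-treated cells. All libraries came from 1 cell line, and nothing in the labels says that the libraries of a group came from separate cultures, so that the p-values measure the spread between these libraries, which may be technical.

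WNT proteins are lipid-modified by PORCN, secreted, and bound at the cell surface by a Frizzled receptor, with LRP5 or LRP6 as co-receptor in the canonical branch. Binding disassembles the AXIN-based complex that otherwise marks β-catenin for degradation, and β-catenin then enters the nucleus and acts with TCF/LEF factors on genes such as AXIN2, a feedback target often read as a measure of canonical signalling. SFRP and DKK proteins act outside the cell as modulators of this binding, RNF43 and ZNRF3 are ligases that remove Frizzled receptors from the membrane, and LGR receptors with R-spondins counter those ligases. In the liver, Wnt signalling is known for setting hepatocyte zonation, and in stellate cells it has been studied in relation to activation.

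Library totals lay between 40539751 and 41467124 reads. Levels of a gene are given in CPM, its reads per 1000000 reads of a library whose size was scaled by the trimmed mean of M values (TMM). The response to TGF-β in the labelled libraries was read from 8 genes, of which 6 rose in TGF-β-treated cells against control cells. TGFBI, an extracellular matrix protein named for its induction by TGF-β, stood at 302 to 332 CPM in control cells and at 2154 to 2306 CPM after TGF-β. Of the stellate cell markers, VIM stood between 1006 and 1153 CPM in the control libraries, whereas the collagen gene COL1A2 had 1 read in 1 of the 9 libraries and none in the others, COL3A1 stayed at or below 2.30 CPM and PDGFRA is not among the listed genes. Of the 12 markers of stellate cells and fibroblasts, 11 were listed and 10 were tested, and 4 of the 10 passed the test with TGF-β. The summed level of the 11 rose from 1542 to 1827 CPM in control libraries to 2562 to 2663 CPM with TGF-β. VIM was the largest part of that sum. The epithelial keratin KRT7 lay between 1369 and 2606 CPM in control libraries, between 3020 and 3156 CPM with TGF-β and between 2050 and 2788 CPM with TGF-β and uridine, so that its control and TGF-β libraries did not overlap (log2 fold change 0.71, edgeR adjusted p = 0.176). Of the other epithelial markers, EPCAM stood at or below 0.105 CPM and CDH1 at or below 0.857 CPM, and none of the 3 tested epithelial markers passed the test with TGF-β. The endothelial list summed to 1.59 to 2.22 CPM in control libraries, 1.85 to 2.81 CPM with TGF-β and 2.54 to 2.88 CPM with TGF-β and uridine. Of its 2 tested genes, CDH5 was lower with TGF-β (log2 fold change -3.88, edgeR adjusted p = 0.0314), and PECAM1 was higher in every TGF-β library than in every control library without passing the test (0.91, edgeR adjusted p = 0.168). The identity of the cells was not examined beyond the marker levels given here. The part of these markers in the Wnt results was not tested. The hepatocyte and the leukocyte marker lists each summed to at most 0.385 CPM in a library. Control libraries 1 and 3 stood apart from the other libraries in how read counts varied with GC content: across all genes, log2 CPM rose by 1.38 per 10 percentage points of GC in control library 1, by 0.744 in control library 2 and by 0.407 in control library 3. The slope lay between 0.785 and 0.872 with TGF-β and between 0.549 and 1.05 with TGF-β and uridine.

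Of the 42 members, 32 passed the filter on low counts and were tested. The 10 that did not pass were the 7 ligands WNT1, WNT2, WNT3A, WNT4, WNT5B, WNT7A and WNT16, together with LGR5, LEF1 and TCF7L1. None of these 10 exceeded 11 reads in a library, and 3 reads corresponded to 0.0629 to 0.0889 CPM. In the comparison of TGF-β-treated with control cells, 4 of the 32 tested members passed an adjusted p of 0.05 in edgeR's quasi-likelihood test with Benjamini-Hochberg adjustment over 13384 genes, against 3.38% of all genes tested. WNT7B, SFRP1 and TCF7 rose and WNT6 fell. Among all genes tested, 2.42% rose and 0.964% fell. The median log2 fold change of the tested members was -0.03, against -0.05 over all genes tested. The 3 libraries of each group did not overlap for 12 of the 32 members, or 37.5%, against 17.7% of all genes. An exact permutation test of 3 libraries against 3 cannot give a p below 0.1, so that each of the 12 had that value. Without control library 1 the count of members called rose to 9 of 32, with DKK3, FZD2 and WNT9A higher and LGR4 and WNT5A lower, and all genes called rose to 7.93%. Without control library 2 or any 1 of the TGF-β libraries, 2 members were called, and all genes called fell to between 1.59% and 1.75%.

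**Figure D1:**
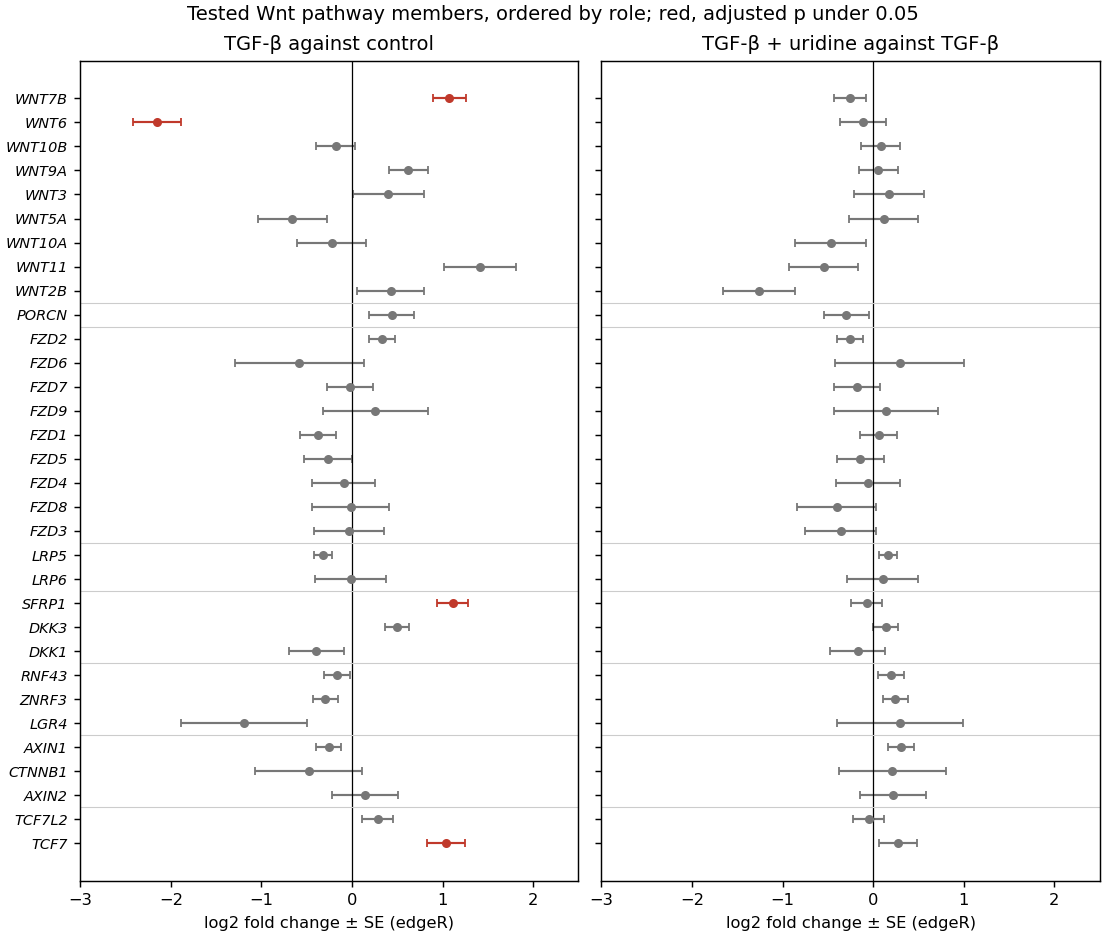
Log2 fold change with its SE from edgeR for the 32 tested members (rows, grouped by role from ligands at the top to TCF/LEF factors at the bottom), TGF-β against control on the left and TGF-β with uridine against TGF-β on the right; red points have an adjusted p under 0.05. WNT6 lies at -2.15 on the left, WNT7B, SFRP1 and TCF7 lie between 1.04 and 1.11, and no point on the right is red.

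WNT6 was the ligand with the highest level per gene length in control cells and fell about 4.45-fold with TGF-β. WNT6 encodes a secreted WNT protein known from epithelial and kidney tubule development, and its gene lies on chromosome 2 (218859821 to 218874233, plus strand, GRCh38, GENCODE). Its TMM-normalized level was 44.0, 25.3 and 24.4 CPM in the 3 control libraries, 7.67, 6.20 and 7.21 CPM in the 3 TGF-β libraries and 6.67, 7.58 and 5.22 CPM in the 3 TGF-β and uridine libraries. Every control library was above every treated library, control library 1 was the highest, and the groups with and without uridine overlapped. The log2 fold change was -2.15 (SE 0.26) for TGF-β against control and -2.27 (SE 0.26) for TGF-β and uridine against control, with adjusted p = 0.00218 and 0.00156 in edgeR's quasi-likelihood test. Without control library 1, the first value was -1.83 (adjusted p = 0.000207 by the same test). In bulk RNA, fewer cells with WNT6 mRNA and less WNT6 mRNA per cell cannot be told apart, which holds for each gene here. Between TGF-β with and without uridine the log2 difference of WNT6 was -0.11, with a 95% interval from -0.69 to 0.46 (edgeR adjusted p = 0.993).

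WNT6 stands 6.1 kb from WNT10A, the next ligand gene on the same chromosome and strand. WNT10A was counted at only 17 to 42 reads in a library, and its log2 fold change with TGF-β was -0.23 (SE 0.38, edgeR adjusted p = 0.981), with overlapping groups. The windows from 250 bases before to 50 bases after the RefSeq transcript starts of both genes (GRCh38.p14, plus strand, 5′ to 3′) are shown because WNT6 held the largest change in the gene set and WNT10A is its neighbour. Capitals mark the 5-base SMAD box CAGAC or its reverse complement GTCTG, the core bound by the SMAD proteins through which TGF-β acts. The WNT6 window spans chr2:218859555-218859854 and the WNT10A window spans chr2:218880602-218880901.
WNT6: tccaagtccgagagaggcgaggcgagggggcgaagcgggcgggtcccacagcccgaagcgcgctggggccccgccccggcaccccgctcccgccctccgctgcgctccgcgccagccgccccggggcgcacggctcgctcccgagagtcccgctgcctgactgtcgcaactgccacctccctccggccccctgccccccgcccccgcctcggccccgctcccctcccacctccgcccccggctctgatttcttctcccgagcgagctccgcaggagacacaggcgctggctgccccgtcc
WNT10A: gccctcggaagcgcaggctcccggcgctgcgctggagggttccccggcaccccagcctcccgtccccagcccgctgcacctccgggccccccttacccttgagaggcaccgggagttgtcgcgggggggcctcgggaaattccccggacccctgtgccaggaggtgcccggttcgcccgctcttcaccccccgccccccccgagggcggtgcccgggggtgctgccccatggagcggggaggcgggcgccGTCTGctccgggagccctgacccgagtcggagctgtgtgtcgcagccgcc
No match was found in the WNT6 window, and the WNT10A window held 1 match, at its transcript start. The box occurred in 45.0% of the 27305 windows of 300 bases in the RefSeq table and in 16 of the 29 members found there. The windows of WNT6 and WNT10A were 78.0% and 76.7% G or C.

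WNT7B, a ligand known from lung and kidney development and from bone formation, rose with TGF-β and took the place of WNT6 as the ligand with the highest level per gene length. It was measured at 26.9, 21.0 and 16.6 CPM in the control libraries, 44.6, 46.2 and 44.9 CPM in the TGF-β libraries and 37.8, 43.6 and 32.3 CPM in the TGF-β and uridine libraries. All treated libraries lay above all control libraries, and every library with uridine lay below every library with TGF-β alone. The log2 fold change with TGF-β was 1.07 (SE 0.18, edgeR adjusted p = 0.0125), and with TGF-β and uridine it was 0.82 against control (edgeR adjusted p = 0.0350). The difference between TGF-β with and without uridine was -0.25 on the log2 scale, with a 95% interval from -0.66 to 0.15 (edgeR adjusted p = 0.811). The WNT7B call with TGF-β was lost without control library 2 or without any 1 of the TGF-β libraries, with adjusted p between 0.0584 and 0.0729, and the call with TGF-β and uridine held in only 1 of the 9 fits that left out a library, the one without control library 1.

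**Figure D2:**
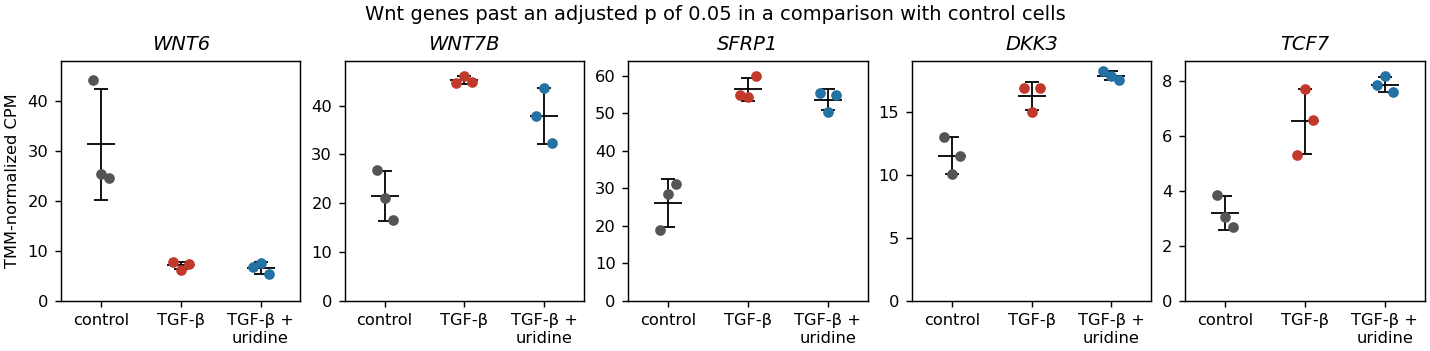
TMM-normalized CPM of the 5 members that passed an adjusted p of 0.05 in a comparison with control cells; points are single libraries, and the horizontal line and bar give the mean ± SD of 3 libraries. WNT6 is at 24.4 CPM or more in every control library and at 7.67 CPM or less in every treated library, while the other 4 genes are higher in every treated library than in every control library.

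The make-up of WNT mRNA was compared on the authors' FPKM values, which divide each gene's reads by its length and the library total. WNT6 stood at 17.6 ± 3.03 FPKM (SD, n = 3) in control cells, 4.05 ± 0.398 in TGF-β-treated cells and 3.80 ± 0.454 with TGF-β and uridine. WNT7B stood at 5.04 ± 0.373, 10.8 ± 0.341 and 9.19 ± 0.720 FPKM in the same order. Of the summed FPKM of all 16 WNT genes, WNT6 made up 58.9% ± 3.75 in control cells and 18.3% ± 1.55 with TGF-β, and WNT7B made up 17.1% ± 1.95 and 48.7% ± 2.14. The shares and the order of the ligands rest on the lengths that the FPKM values imply. These are 1719 bases for WNT6, 4162 bases for WNT7B and 4494 bases for WNT10B. WNT7B was below WNT6 in every control library and above it in every treated library. The ratio of WNT7B to WNT6 FPKM ranged from 0.252 to 0.342 in control cells, from 2.40 to 3.08 with TGF-β and from 2.34 to 2.55 with TGF-β and uridine. These ratios are a description, since the pair was chosen after its values were seen, and the groups with and without uridine overlapped. The summed WNT FPKM itself was 29.7 ± 3.19 in control cells, 22.1 ± 0.578 with TGF-β and 20.7 ± 0.874 with TGF-β and uridine, without overlap between control and treated libraries.

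**Figure D3:**
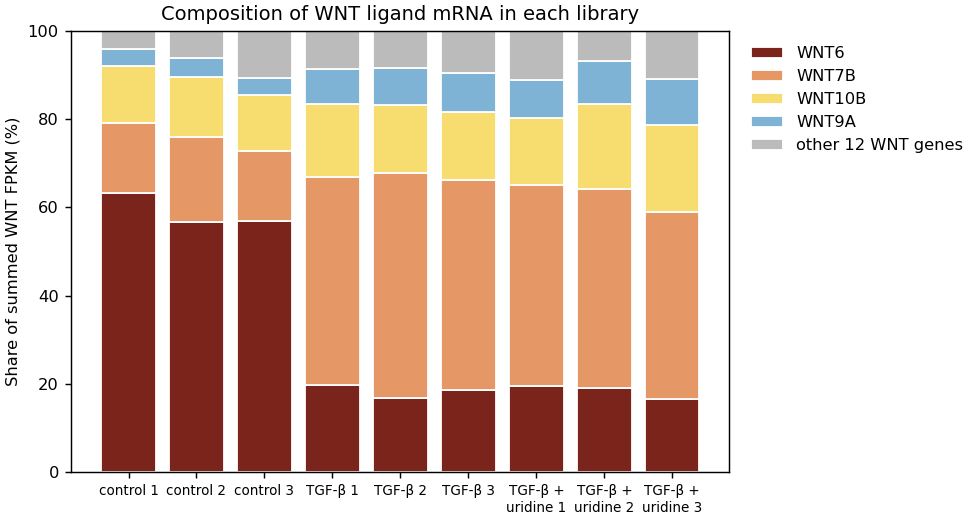
Share of the summed FPKM of 16 WNT genes taken by each ligand, in percent, for each of the 9 libraries. WNT6 fills 56.6% to 63.3% of the bar in the control libraries and 16.6% to 19.7% in the treated libraries, where WNT7B fills 42.3% to 51.2%.

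The remaining tested ligands did not pass the edgeR test in any of the 3 comparisons. WNT10B, a ligand known for holding back adipocyte differentiation, made up 13.1% ± 0.586 of summed WNT FPKM in control cells and 15.7% ± 0.699 with TGF-β, below WNT6 and WNT7B in each of those 6 libraries. With TGF-β and uridine its share was 18.1% ± 2.41, within the spread of that of WNT6 (18.3% ± 1.56). WNT10B was above WNT6 in uridine libraries 2 (19.3% against 19.0%) and 3 (19.7% against 16.6%) and below it in library 1 (15.3% against 19.5%). Its normalized level overlapped between all groups, with a log2 fold change of -0.18 with TGF-β (SE 0.22, edgeR adjusted p = 0.946) and 0.08 with uridine (95% interval -0.41 to 0.57). WNT9A was measured at 7.44, 5.24 and 4.53 CPM in the control libraries and 8.45, 8.71 and 9.26 CPM in the TGF-β libraries. These groups did not overlap, and the log2 fold change of 0.62 (SE 0.21) had an adjusted p of 0.220 in the edgeR test. By limma on log2(FPKM + 0.1), WNT9A was called higher with TGF-β (8% of all genes called) and with both agents (14.1%). WNT11, a ligand of the non-canonical branch, had only 7 to 39 reads in a library, with 13, 7 and 15 in the control, 24, 39 and 31 in the TGF-β and 18, 20 and 28 in the TGF-β and uridine libraries. Its log2 fold change of 1.41 with TGF-β (SE 0.40, edgeR adjusted p = 0.115) was numerically the largest upward one of the 32 and did not pass the test. WNT5A, the best known non-canonical ligand and low in GC (42.3%), spread from 5.57 to 18.5 CPM among the control libraries alone, and its log2 fold change of -0.66 had an SE of 0.38 (edgeR adjusted p = 0.623). WNT2B had 7, 15 and 12 reads in the control, 12, 15 and 18 in the TGF-β and 7, 6 and 6 in the TGF-β and uridine libraries. For WNT2B, 21.2% of the exon bases also belong to exons of ST7L.

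PORCN, the acyltransferase needed for WNT secretion, was measured at 16.7, 11.4 and 8.62 CPM in the control libraries, 17.4, 15.7 and 16.5 CPM in the TGF-β libraries and 12.6, 16.8 and 11.0 CPM in the TGF-β and uridine libraries. All groups overlapped, control library 1 was as high as the TGF-β libraries, and no comparison passed the test (edgeR adjusted p from 0.613 to 0.898).

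All 9 Frizzled genes in the table were tested, and none passed the test in a comparison. FZD2 was the highest of them per gene length in every library. It stood at 50.7, 39.9 and 33.3 CPM in the control libraries, 52.1, 50.7 and 52.9 CPM in the TGF-β libraries and 42.2, 46.8 and 41.4 CPM in the TGF-β and uridine libraries. The TGF-β libraries were above all others, but the lowest of them differed from control library 1 by less than the rounding of these values. FZD2 had a log2 fold change of 0.33 with TGF-β (SE 0.15, edgeR adjusted p = 0.427) and -0.26 for uridine in TGF-β-treated cells (95% interval -0.59 to 0.08, edgeR adjusted p = 0.720). On FPKM, FZD2 stood between 10.2 and 11.0 in control and between 13.4 and 14.1 in TGF-β libraries, and limma on log2(FPKM + 0.1) called it higher (0.34, adjusted p = 0.0104). The other 8 Frizzled genes had absolute log2 fold changes of 0.58 or less with TGF-β. FZD6, with the next highest median level per gene length, ranged from 43 to 595 reads among the control libraries, and FZD9 from 8 to 44 reads.

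Of the co-receptors, LRP5 was the more abundant per gene length in every library. It was measured at 100.3, 87.7 and 81.4 CPM in the control libraries, 73.8, 70.4 and 71.4 CPM in the TGF-β libraries and 83.8, 83.2 and 74.8 CPM in the TGF-β and uridine libraries. The TGF-β libraries lay below all libraries of both other groups. The log2 fold change was -0.32 with TGF-β (SE 0.10, edgeR adjusted p = 0.180) and 0.17 for uridine in TGF-β-treated cells (95% interval -0.07 to 0.40, edgeR adjusted p = 0.760). By limma on log2(FPKM + 0.1), LRP5 was called lower with TGF-β, where 8% of all genes were called. LRP6 spread from 4.21 to 14.3 CPM among the control libraries, a range that covered every treated library.

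**Figure D4:**
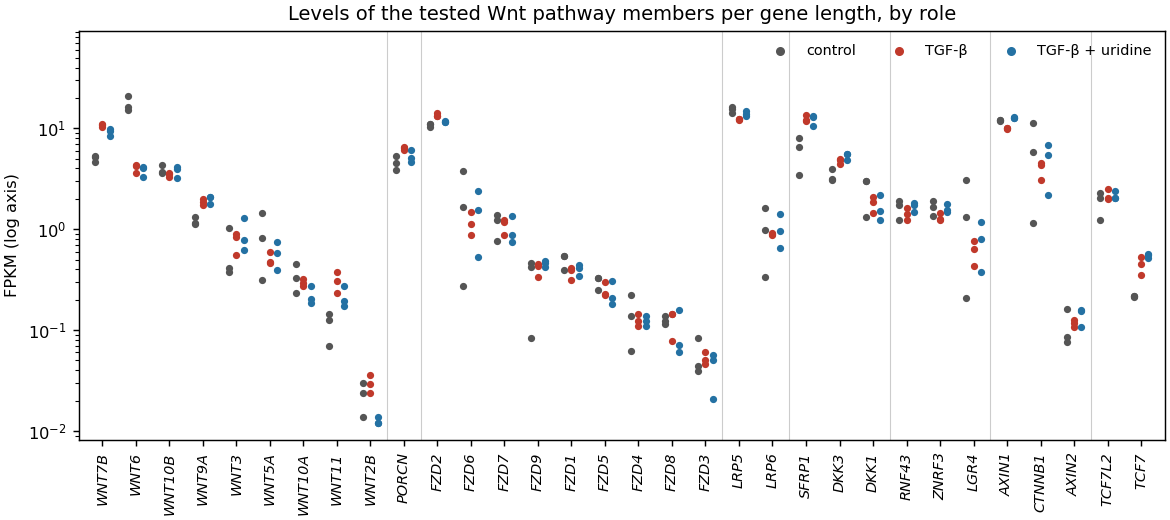
Deposited FPKM on a log axis for the 32 tested members, grouped by role, with 1 point per library in grey (control), red (TGF-β) and blue (TGF-β and uridine). WNT6 and WNT7B exchange their order between control and treated libraries, and CTNNB1, FZD6, LRP6 and LGR4 spread over a wide range among the control libraries.

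Of the secreted antagonists sought by symbol (DKK, SFRP and WIF1), only DKK1, DKK3 and SFRP1 were in the table. The secreted antagonists FRZB, SOST and NOTUM were also listed and belong to the pathway list described below. SFRP1, which binds WNT ligands outside the cell, was on average the most abundant of the 3 per gene length, at 6.03 ± 2.35 FPKM in control cells and 12.5 ± 0.847 FPKM with TGF-β (SD, n = 3). Its normalized level was 18.8, 28.3 and 31.1 CPM in the control libraries, 54.8, 54.3 and 59.8 CPM in the TGF-β libraries and 55.3, 50.3 and 55.0 CPM in the TGF-β and uridine libraries. All treated libraries were above all control libraries, control library 1 was the lowest, and the treated groups overlapped. SFRP1 had a log2 fold change of 1.11 with TGF-β (SE 0.17, edgeR adjusted p = 0.00804) and 1.04 with TGF-β and uridine (edgeR adjusted p = 0.00957). For uridine in TGF-β-treated cells it was -0.07, with a 95% interval from -0.46 to 0.31. Both SFRP1 calls held in all 9 fits that left out 1 library, and were lost when only the 2 groups compared were fitted (adjusted p = 0.0537 and 0.0816).

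DKK3, a Dickkopf family member that, unlike DKK1, is not a classical inhibitor of LRP co-receptors, was measured at 13.0, 10.1 and 11.5 CPM in the control libraries, 16.9, 15.0 and 16.9 CPM in the TGF-β libraries and 18.2, 17.9 and 17.5 CPM in the TGF-β and uridine libraries. The 3 groups followed each other without overlap. In the edgeR test DKK3 passed only with TGF-β and uridine against control, where it was 0.63 higher on the log2 scale (SE 0.14, edgeR adjusted p = 0.0314). With TGF-β alone the value was 0.50 (SE 0.14, edgeR adjusted p = 0.105), and the difference between both treatments was 0.14 with a 95% interval from -0.17 to 0.44 (edgeR adjusted p = 0.906). DESeq2 called DKK3 higher with TGF-β alone as well, as 1 of 5 members, against 6.43% of all genes. The edgeR call of DKK3 with TGF-β and uridine held in only 1 of the 9 fits that left out a library, the one without control library 1. DKK1, the classical LRP antagonist, ranged from 2.87 to 5.26 CPM in the control libraries and from 2.38 to 3.79 CPM in the treated libraries and did not pass the test (edgeR adjusted p = 0.809 with TGF-β).

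The receptor regulators did not pass the test in a comparison. The ligase gene RNF43 was measured at 11.3, 12.6 and 12.4 CPM in the control libraries, 9.56, 10.7 and 12.1 CPM in the TGF-β libraries and 13.0, 12.0 and 12.0 CPM in the TGF-β and uridine libraries, with overlap between all groups. Its exon bases are shared with exons of SUPT4H1 and 2 other annotated genes over 73.9% of their length, and reads there cannot be assigned to RNF43 with certainty. ZNRF3, the related ligase, was measured at 11.4, 11.1 and 11.5 CPM in the control libraries, 8.88, 8.76 and 10.1 CPM in the TGF-β libraries and 10.3, 11.1 and 11.5 CPM in the TGF-β and uridine libraries. The TGF-β libraries of ZNRF3 lay below all libraries of both other groups, at -0.29 against control on the log2 scale (SE 0.14, edgeR adjusted p = 0.448) and 0.24 for uridine (95% interval -0.06 to 0.55). LGR4, a receptor for R-spondins, had 45, 284 and 669 reads in the control libraries and 81 to 255 reads in the treated libraries, and LGR5 had at most 7 reads.

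AXIN1, a scaffold of the complex that marks β-catenin for degradation, was measured at 79.6, 62.6 and 54.9 CPM in the control libraries, 56.8, 53.4 and 54.5 CPM in the TGF-β libraries and 67.8, 73.0 and 63.0 CPM in the TGF-β and uridine libraries. Every library with uridine lay above every library with TGF-β alone, while the control libraries spanned nearly the whole range. The log2 difference for uridine was 0.31, with a 95% interval from -0.01 to 0.62 (edgeR adjusted p = 0.584). On FPKM, AXIN1 stood between 11.7 and 12.0 in control, between 9.82 and 10.2 in TGF-β and between 12.5 and 13.0 in TGF-β and uridine libraries, without overlap. There, limma on log2(FPKM + 0.1) called AXIN1 lower with TGF-β (-0.24, adjusted p = 0.0337) and higher with uridine (0.34, adjusted p = 0.0208). AXIN2, the feedback target of canonical signalling, was counted at few reads, with 17, 35 and 19 reads in the control libraries, 28, 24 and 26 in the TGF-β libraries and 24, 34 and 35 in the TGF-β and uridine libraries. All groups of AXIN2 overlapped, and the log2 fold change with TGF-β was 0.14 with a 95% interval from -0.68 to 0.97 (edgeR adjusted p = 0.996). For AXIN2, 25.2% of the exon bases are shared with another annotated gene. CTNNB1, the gene for β-catenin, had 203, 1006 and 1981 reads in the 3 control libraries, a spread that covered all treated libraries (388 to 1189 reads).

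The TCF/LEF genes encode the DNA-binding partners of β-catenin. TCF7 rose in both comparisons with control cells. Exons of SKP1 on the other strand cover 2.1% of its exon bases. It was measured at 3.85, 3.02 and 2.66 CPM in the control libraries, 5.31, 7.70 and 6.55 CPM in the TGF-β libraries and 7.84, 8.15 and 7.59 CPM in the TGF-β and uridine libraries. All treated libraries were above all control libraries, and the treated groups overlapped at 1 library. TCF7 had a log2 fold change of 1.04 with TGF-β (SE 0.21, edgeR adjusted p = 0.0323) and 1.31 with TGF-β and uridine (edgeR adjusted p = 0.00890), with a difference of 0.27 between both (95% interval -0.20 to 0.74, edgeR adjusted p = 0.836). The TCF7 call with TGF-β alone held without control library 1 and was lost in each of the 8 fits that left out another library (adjusted p from 0.0563 to 0.169). With TGF-β and uridine it was lost only without control library 2 (adjusted p = 0.0572). The RefSeq window around the TCF7 transcript start (chr5:134115363-134115662, GRCh38.p14, plus strand, 5′ to 3′) is shown because TCF7 was the called transcription factor of the gene set, with the SMAD box in capitals.
TCF7: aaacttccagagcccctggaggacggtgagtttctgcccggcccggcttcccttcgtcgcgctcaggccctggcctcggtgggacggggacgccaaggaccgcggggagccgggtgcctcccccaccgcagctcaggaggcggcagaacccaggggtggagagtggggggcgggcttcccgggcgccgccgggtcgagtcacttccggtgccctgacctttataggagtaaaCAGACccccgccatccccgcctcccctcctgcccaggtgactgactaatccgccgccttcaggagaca
The window held 1 CAGAC, which began 18 bases before the transcript start. The TCF/LEF core CTTTGA (or TCAAAG on the other strand) and the AP-1 site TGANTCA were absent from the windows of WNT6, WNT10A and TCF7, and occurred in 13.1% and 7.8% of all windows. WNT7B, SFRP1 and DKK3 had no entry in that table.

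TCF7L2 was the most abundant TCF/LEF gene per gene length, at 7.94, 10.4 and 10.3 CPM in the control libraries, 11.1, 10.7 and 13.2 CPM in the TGF-β libraries and 12.3, 11.5 and 9.96 CPM in the TGF-β and uridine libraries. The ranking rests on the lengths that the FPKM values imply, 5296 bases for TCF7L2 and 14537 bases for TCF7. The TGF-β libraries of TCF7L2 were slightly above the control libraries, and the log2 fold change of 0.28 (SE 0.17) had an edgeR adjusted p of 0.670. LEF1, itself a target of the pathway in many tissues, had 1 read in each of 2 libraries and none in the other 7, and TCF7L1 had at most 11 reads.

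The comparison of TGF-β and uridine with TGF-β alone shares its TGF-β libraries with the comparison of TGF-β with control. A deviation in those libraries moves the log2 fold changes of both comparisons in opposite directions. Between TGF-β with and without uridine, 0 of the 32 tested members passed an adjusted p of 0.05 in edgeR's quasi-likelihood test, where 0.0448% of all genes tested did. With only these 2 groups fitted, or without control library 1, 0 members passed, where 2.44% and 1.98% of all genes did. DESeq2 called 0 members as well, against 1.78% of all genes, and limma on log2(FPKM + 0.1) called 1 of the 21 members it tested, AXIN1, against 3.81% of all genes. At an unadjusted edgeR p under 0.05 there was 1 member, WNT2B, at -1.26 on the log2 scale (SE 0.39, adjusted p = 0.378), against 8.79% of all genes. The libraries of both groups did not overlap for 8 of the 32 members, or 25%, against 25.6% of all genes. AXIN1, DKK3, LRP5 and ZNRF3 were higher in every uridine library (4 members, against 12.8% of all genes), and FZD2, WNT7B, WNT10A and WNT2B were lower (4 members, against 12.8%). The median log2 fold change of the tested members was 0.06, against 0.02 over all genes. The 5 members called against control cells had uridine differences between -0.25 and 0.27.

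In the comparison of TGF-β and uridine with control cells, which shares its control libraries with the TGF-β comparison, 5 of the 32 tested members passed the same threshold, against 5.33% of all genes tested. DKK3, SFRP1, TCF7 and WNT7B were higher and WNT6 was lower. The count was 8 without control library 1 (17.6% of all genes), 2 without control library 2 (2.23%) and 3 without any 1 of the other 7 libraries (2.36% to 5.43%). Among all genes tested, 2.89% were higher and 2.44% were lower. The groups did not overlap for 9 of the 32 members, or 28.1%, against 19.7% of all genes.

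The rest of the pathway was described with 66 further genes in 6 groups, of which 61 were in the table and 46 were tested. With TGF-β against control, 0 of the 46 passed an adjusted p of 0.05 in edgeR's quasi-likelihood test, against 3.38% of all genes. DESeq2 called 4, all lower, against 6.43% of all genes. The 46 covered 5 tested genes of secretion and extracellular regulation, 2 of the R-spondin and LGR group, 9 non-canonical receptor and planar polarity genes, 17 cytoplasmic genes, 9 nuclear cofactors and 6 target genes, with some genes in 2 groups. For uridine in TGF-β-treated cells, 0 of the 46 passed by either tool, where 0.0448% of all genes passed in edgeR and 1.78% in DESeq2. With TGF-β and uridine against control, 2 of the 46 (4.35%, against 5.33% of all genes) passed, and both were higher. DESeq2 called 9 in that comparison, 4 higher and 5 lower, against 9.66% of all genes. CELSR3, a planar polarity cadherin, was measured at 19.8, 17.1 and 17.8 CPM in the control libraries, 23.8, 25.7 and 21.5 CPM in the TGF-β libraries and 30.2, 28.1 and 26.6 CPM in the TGF-β and uridine libraries, or 0.63 higher than control on the log2 scale with both agents (SE 0.12, edgeR adjusted p = 0.0189). The 3 groups of CELSR3 followed each other without overlap. LGR6, another R-spondin receptor, had 8, 14 and 20 reads in the control, 28, 33 and 22 in the TGF-β and 57, 29 and 75 in the TGF-β and uridine libraries, or 1.91 higher than control on the log2 scale with both agents (SE 0.40, edgeR adjusted p = 0.0278). The LGR6 reads of the uridine group overlapped those of the group with TGF-β alone. Leaving out 1 library kept the CELSR3 call in 4 of 9 fits and the LGR6 call in 3 of 9.

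The spread among control libraries was unequal over the gene set and followed the GC content of the members. CTNNB1 (43.5% GC) was 6.91-fold higher in control library 3 than in control library 1, FZD6 (38.4%) 9.80-fold and LGR4 (42.1%) 10.5-fold, whereas WNT6 (70.5%) had a ratio of 0.555 and WNT7B (63.0%) a ratio of 0.617. Over the 32 tested members, the log2 ratio of control library 3 to control library 1 had a Pearson correlation of -0.79 and a Spearman correlation of -0.89 with GC content. This is a description across genes that share both libraries, and the same Pearson correlation was -0.72 over 12319 tested genes with a known GC content. When the GC slope of each library was added to the edgeR model, 13 members passed with TGF-β (8 higher, 5 lower), against 20.3% of all genes. The added ones were PORCN, WNT9A, WNT11, DKK3 and FZD2 on the higher side and AXIN1, LGR4, LRP5 and WNT5A on the lower side. For uridine, 5 members passed in that model, AXIN1 and LRP5 higher and FZD2, PORCN and WNT7B lower, against 19.1% of all genes. The log2 fold change of WNT6 with TGF-β was -2.08 in that model, SFRP1 had 1.12, WNT7B 1.12 and TCF7 1.06. The part of GC content in the other results was not tested.

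**Figure D5:**
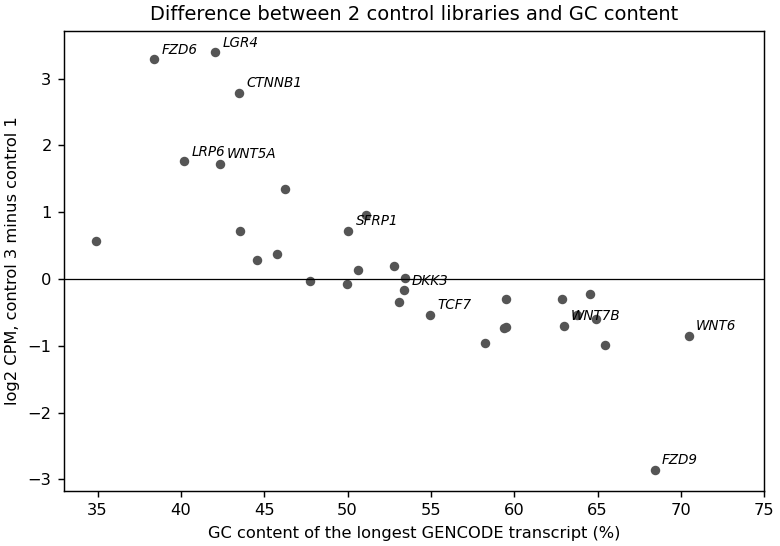
GC content of the longest annotated transcript in percent (horizontal) and the log2 difference of CPM between control library 3 and control library 1 (vertical) for the 32 tested members; each point is 1 gene. Members with low GC, such as FZD6, LGR4 and CTNNB1, lie far above 0, and FZD9 and WNT6, the members with the highest GC, lie below 0.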

How the data were processed

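The authors deposited a table of read counts per gene symbol, which are whole numbers without normalization, and an FPKM value (fragments scaled by gene length and library total) for each of them. Per the submitters' processing notes, fastp, HISAT2, HTSeq and R 3.2.0 and the genome build GRCh38.p13 were used. Their order, settings and annotation, and whether counting used strand, are not given in the sources used here. FPKM values equalled count / (length × library total) with the same length in all 9 libraries.

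Libraries were grouped by their labels. Counts were filtered with filterByExpr, normalized by TMM and tested two-sided with edgeR 4.0.16 (R 4.3.3) in 1 model of condition over 9 libraries, with Benjamini-Hochberg adjustment over 13384 genes and a threshold of 0.05. CPM denotes reads per 1000000 reads of the TMM-scaled library. The SE and the 95% intervals are from the same model. Levels were compared between genes only on FPKM. Alternatives were DESeq2 1.42.0, limma 3.58.1 on the log2 scale of FPKM, with 0.1 or 1 added, for genes reaching 0.5 FPKM, other normalizations and filters, only the 2 groups compared, a replicate block, a GC slope covariate and leaving out each library. GC content and exon overlaps came from GENCODE v29 (GRCh38) by gene symbol, for all 42 members, and promoters from RefSeq (GRCh38.p14), which matched 29 of 42.

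Members named with values were those past the threshold in a comparison, the most abundant of each role and the feedback genes AXIN2, LEF1, RNF43, ZNRF3 and LGR5, and pathway list genes past the threshold. WNT9A, WNT11, WNT5A, WNT10A, WNT10B, WNT2B, LGR4, CTNNB1, LRP6, DKK1, FZD6 and FZD9 were singled out after their values were seen. The members and lists were chosen with earlier results of these data known.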

Additional observations from a re-analysis of the deposited data

How the results depend on the processing

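WNT6 kept its direction and stayed past an adjusted p of 0.05 in both comparisons with control cells under all 20 alternatives, with log2 fold changes from -2.30 to -1.83 for TGF-β. SFRP1 did so under 19 of 20, WNT7B under 15 of 20 with TGF-β and 10 of 20 with TGF-β and uridine, and DKK3 under 9 of 20 with both agents. TCF7 was tested in 18 alternatives and passed in 7 with TGF-β and 16 with both agents.

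Against the 4, 0 and 5 members called for TGF-β, for uridine and for both agents, fitting only the 2 groups compared called 1, 0 and 1. In those fits 1.77%, 2.44% and 1.7% of all genes were called. A GC slope covariate called 13, 5 and 9, where 20.3%, 19.1% and 31.1% of all genes were called, and limma on FPKM, with 0.1 or 1 added, called 7, 1 and 5 of only 21 members tested, where 8%, 3.81% and 14.1% of all genes were called with 0.1 added. Leaving out 1 library gave 2 to 9, 0, and 2 to 8 members. Against 0, 0 and 2 genes of the pathway list, DESeq2 called 4, 0 and 9 (6.43%, 1.78% and 9.66% of all genes), the GC covariate 18, 13 and 19, limma 2, 2 and 6 of 37 tested with either addend, and leaving out 1 library 0 to 6, 0, and 0 to 11. Upper-quartile normalization called 1 for TGF-β, where 3.95% of all genes were called. For both agents, a minimum of 10 counts in every library called 1 (5.89% of all genes). Fitting only the 2 groups compared called 0 for both agents (1.7%). The cause of these differences was not tested. Fewer libraries entered the fits of 2 groups or without 1 library, and all genes called moved in both directions there. They were 7.93%, 1.98% and 17.6% without control library 1 and 1.75%, 0% and 2.23% without control library 2. With all libraries they were 3.38%, 0.0448% and 5.33%.

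The labels number the libraries 1 to 3 in each group. Same-numbered libraries had correlations of their deviations from the group means between -0.21 and 0.56, and differently numbered ones between -0.66 and 0.63. Not every library correlated best with its own number. The libraries also differed in GC slope, so that these correlations cannot settle whether the numbers pair the libraries. With a replicate block, 3, 0 and 4 members and 0, 0 and 1 pathway list genes were called, against 2.35%, 0% and 3.27% of all genes. With the replicate block and the GC covariate, the counts were 12, 4 and 8 members and 17, 11 and 19 list genes, where 17.5%, 15.5% and 28.1% of all genes were called.

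Directions that turned belonged to results that passed no test. With TGF-β, leaving out 1 library gave log2 fold changes from -0.071 to 0.51 for AXIN2, -0.47 to 0.24 for WNT10A, -0.33 to 0.063 for WNT10B, -0.94 to 0.19 for CTNNB1 and -1.08 to 0.25 for FZD6. For uridine they ran from -0.12 to 0.050 for TCF7L2, -0.24 to 0.020 for WNT6, -0.051 to 0.14 for WNT9A, -0.067 to 0.28 for WNT5A, -0.073 to 0.20 for WNT10B, -0.071 to 0.60 for LGR4, -0.068 to 0.53 for CTNNB1 and -0.18 to 0.67 for FZD6, which was -0.0010 with the GC covariate. With both agents they ran from -0.065 to 0.19 for AXIN1, -0.059 to 0.23 for FZD2, -0.057 to 0.41 for PORCN, -0.038 to 0.061 for RNF43, -0.25 to 0.13 for WNT10B, -0.74 to 0.40 for CTNNB1 and -0.80 to 0.55 for FZD6. On FPKM with 0.1 added, limma gave 0.026 for CTNNB1 and 0.0045 for FZD6. Among the fits that left out 1 library, these signs turned without control library 1 or 3, TGF-β library 3 or 1 of the TGF-β and uridine libraries. Fold changes of DKK1, LRP6, WNT3, FZD1, FZD3, FZD4, FZD5, FZD7, FZD8 and FZD9 were not followed through the alternatives.

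Depth limits the members counted at few reads: AXIN2, FZD3, FZD8, FZD9, WNT10A, WNT11 and WNT2B had at most 48 reads in a library. Only DKK1, DKK3 and SFRP1 of the antagonists were analysed as members of the gene set, while the antagonist NOTUM was tested in the pathway list.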
